A study of Mus musculus with 6 samples.

Results

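The genes described here encode the enzymes of glycolysis, of pyruvate and lactate handling and of the tricarboxylic acid (TCA) cycle, with a few enzymes of glycogen and glucose synthesis. The list of 49 genes was set by name, with earlier results of these data known. Each gene was read from its brightest probe set, by mean over the 6 arrays, among those annotated to that gene alone. Of the 49, 45 had such a probe set and 42 passed the filter on dim signal (log2 4 or more on at least 3 arrays), out of 10531 genes tested in all. Gpi1, Eno1 and Mpc2 were not analysed here, and Gapdh was read only from control probe sets of the array. Pfkfb4, Pgam2 and Fbp2 lay below the filter. The arrays held total RNA of mouse neural stem cells, 3 of Spot14 GFP positive cells and 3 of Spot14 GFP negative cells, called biological replicates by the labels. Spot14, encoded by Thrsp, is a protein known from lipogenic tissues, and green fluorescent protein (GFP) reports on it. How the reporter was made, the age and strain of the mice, and how the cells were grown or separated are not given in the sources used here. Nothing states that the replicates came from separate animals or cultures, so p-values measure the spread between these arrays. The question taken here is at which steps, and through which isozymes, carbohydrate metabolism differed between the cells with and without the reporter signal.

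Glycolysis splits glucose into pyruvate in the cytosol. Pyruvate is then either reduced to lactate or carried into mitochondria, where the pyruvate dehydrogenase complex turns it into acetyl-CoA for the TCA cycle. Citrate that leaves the cycle supplies the carbon for fatty acid synthesis. Kinases of the PDK family switch the pyruvate dehydrogenase complex off by phosphorylation, and phosphatases switch it on again. Many steps exist as isozymes, and in brain Aldoc, Pygb and Pcx are known as genes of astrocytes.

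Array medians were 3.55 to 3.66 on the log2 scale, and the number of arrays limits the precision. Of 10 neural stem cell markers 9 passed the filter, and the mean log2 level of all 10 was 11.28 to 11.42 on GFP positive and 10.92 to 11.12 on GFP negative arrays. All 10 astrocyte markers passed it, with a mean level of 10.57 to 10.67 on GFP positive and 9.05 to 9.41 on GFP negative arrays, and 6 of them rose. Of 12 genes of dividing cells, 11 were tested and 10 fell, with a mean level of 6.06 to 6.81 on GFP positive and 7.90 to 8.60 on GFP negative arrays. At the same limma adjusted p under 0.05, 2.35% of all genes tested rose and 2.11% fell. Without GFP positive replicate 1 or 3, 0 of all genes fell, so these 10 calls were not kept there. Microglial markers averaged 2.82 to 2.97 on GFP positive and 2.71 to 2.90 on GFP negative arrays, and endothelial markers 2.59 to 2.61 and 2.49 to 2.72 on the same arrays. Of 8 neuronal markers 6 lay below the filter, and of 6 oligodendrocyte markers with a probe set 5 did. The astrocyte and cell division shifts run beside every difference given below, and their part in those differences was not tested. In RNA of whole cell populations, fewer cells of a type and less RNA per cell cannot be told apart. The mean excess of 3′ over 5′ signal of the Gapdh and beta-actin controls was 1.52 to 1.63 on GFP positive and 1.51 to 2.49 on GFP negative arrays, and the highest value was that of GFP negative replicate 2.

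Of the 42 enzymes tested, 3 rose in GFP positive cells and none fell at a limma adjusted p under 0.05. They were Pdk4, a kinase that inactivates pyruvate dehydrogenase, Pygb, the brain isozyme of glycogen phosphorylase, and Mpc1, a subunit of the mitochondrial pyruvate carrier. The other 39 did not pass, among them every tested enzyme of glycolysis, lactate dehydrogenase and the TCA cycle. The 3 members are 7.14% of those tested, where 2.35% of all genes tested were higher and 2.11% lower. Before adjustment, 10 members passed a limma p of 0.05 upward and 0 downward, against 9.92% and 8.28% of all genes. The groups did not overlap for 12 members that were higher in GFP positive cells and 3 that were lower, where the shares among all genes were 13.8% and 11.5%. Of the 42 differences 31 were positive (50.5% among all genes), with a median of 0.19 on the log2 scale against 0.0049 for all genes. Whether the members exceeded the shares of all genes was not tested. A list chosen with earlier results of these data known could not decide it.

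These counts depended on which arrays were kept. Without GFP positive replicate 1, 2 or 3 no member passed in limma, nor without GFP negative replicate 2, although in those fits 4 to 6 passed upward before adjustment and 0 downward. Of all genes, 1 to 70 were higher in those fits. Without GFP negative replicate 1 only Pdk4 passed. Without GFP negative replicate 3, 7 members passed, all higher: Pdk4, Pygb, Mpc1, Pcx, Pdk2, Pfkm and Pfkl, where 7.61% of all genes were higher. A fit that adjusts for the 3′ to 5′ excess, added once the data had been seen, gave a limma adjusted p of 0.0991 for Pdk4 (1.38), 0.108 for Pygb (1.14) and 0.200 for Mpc1 (0.70), with the log2 difference in parentheses; 0.0855% of all genes were higher in it.

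**Figure D1:**
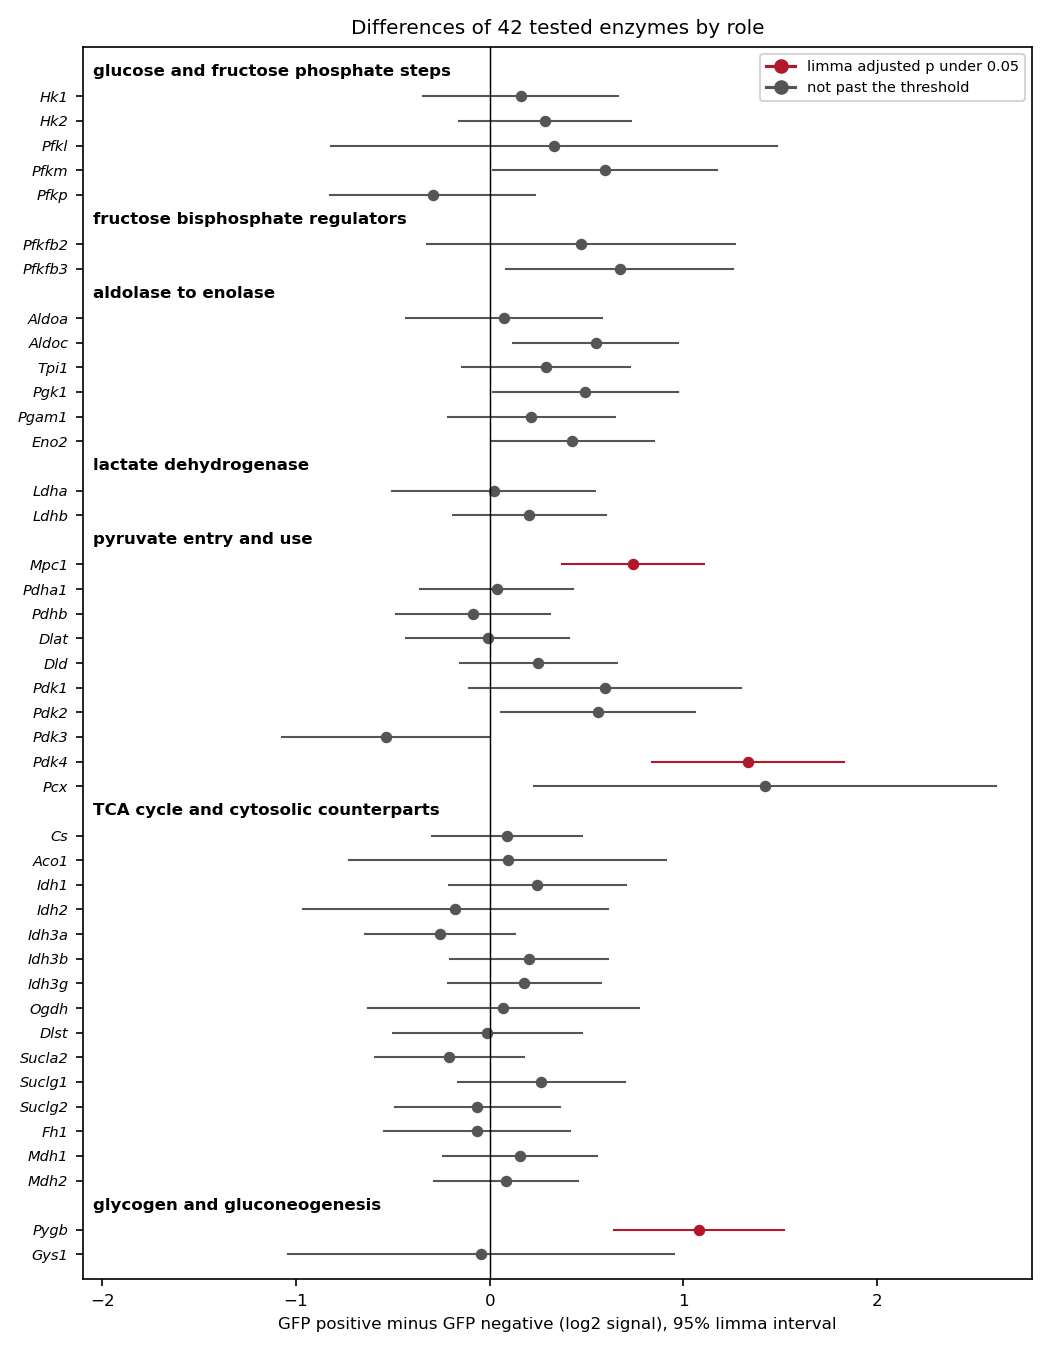
Difference between GFP positive and GFP negative arrays (log2 signal, x axis) for the 42 tested enzymes, grouped by role, with 95% limma intervals from 3 arrays per group. The intervals of Pdk4, Pygb and Mpc1 (red, limma adjusted p under 0.05) lie above 0. So do those of Pcx, Aldoc, Pfkfb3, Pdk2, Pfkm, Pgk1 and Eno2, which did not pass after adjustment. Those of the 15 enzymes of the TCA cycle and its cytosolic counterparts all cross 0.

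Pdk4 showed the clearest difference. This kinase is known in many tissues as the family member induced when cells burn fat. It measured 9.64, 9.54 and 9.53 in GFP positive cells, against 8.43, 8.43 and 7.85 in GFP negative cells. The groups were separate by more than 1 unit, and GFP negative replicate 3 held the lowest value. GFP positive cells averaged 9.57 ± 0.06 and GFP negative cells 8.24 ± 0.33 (SD, n = 3 each). Pdk4 was thus 2.52-fold higher, or 1.33 on the log2 scale (SE 0.21, 95% interval 0.84 to 1.83), with a limma adjusted p of 0.0195. With each array left out in turn the difference was 1.14 to 1.43 and the limma adjusted p 0.00811 to 0.103, and the call was kept without GFP negative replicate 1 or 3 but not without any other array.

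Pygb releases glucose units from glycogen. Its signal was 12.51, 12.57 and 12.59 in GFP positive cells, against 11.23, 11.48 and 11.72 in GFP negative cells. The groups were apart by more than the range within either. Pygb was 2.11-fold higher, with a log2 difference of 1.08 (SE 0.19, 95% interval 0.64 to 1.52, limma adjusted p = 0.0264). Leaving out 1 array at a time gave 0.96 to 1.20, and the call was kept only without GFP negative replicate 3 (limma adjusted p 0.00861, otherwise up to 0.130).

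Mpc1 and Mpc2 together form the carrier that brings pyruvate into mitochondria. Its signal was 11.56, 11.56 and 11.54 in GFP positive cells, against 10.88, 10.76 and 10.79 in GFP negative cells. Both groups were tight, at 11.55 ± 0.01 and 10.81 ± 0.06 (SD, n = 3 each), and they did not overlap. Mpc1 was 1.67-fold higher (0.74, SE 0.16, 95% interval 0.37 to 1.11, limma adjusted p = 0.0463). The difference stayed between 0.72 and 0.77 whichever array was left out, and only without GFP negative replicate 3 did it pass (limma adjusted p 0.0258, otherwise up to 0.226). With the arrays set to a common median Mpc1 missed the threshold (limma adjusted p = 0.0548), as it did when cross-hybridising probe sets of all genes were left out (0.0506). It also missed it when every probe set was fitted (limma adjusted p = 0.0704) and with the replicate number as a block (0.220).

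The 3 genes that rose lie on different chromosomes, and their promoter windows are shown because they were the members that passed together. Each window runs from 250 bases before to 50 bases after the RefSeq gene start (assembly GRCm38.p6) and is written 5′ to 3′ on the gene's strand. Capitals mark ACGTG on either strand, the core of the hypoxia response element. They would also mark CACGTG, the E-box of Myc and related factors, which contains that core, and AGGTCA, the half-site of many nuclear receptors. Pdk4 lies at chr6:5496229-5496528 (minus strand), Pygb at chr2:150786546-150786845 (plus strand) and Mpc1 at chr17:8283537-8283836 (plus strand, the first of its 2 listed starts).
Pdk4: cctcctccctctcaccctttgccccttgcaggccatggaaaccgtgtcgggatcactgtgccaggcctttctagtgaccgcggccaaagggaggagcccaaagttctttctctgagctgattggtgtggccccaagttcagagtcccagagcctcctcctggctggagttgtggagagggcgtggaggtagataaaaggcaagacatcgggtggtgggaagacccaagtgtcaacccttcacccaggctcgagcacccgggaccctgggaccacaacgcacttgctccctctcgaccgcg
Pygb: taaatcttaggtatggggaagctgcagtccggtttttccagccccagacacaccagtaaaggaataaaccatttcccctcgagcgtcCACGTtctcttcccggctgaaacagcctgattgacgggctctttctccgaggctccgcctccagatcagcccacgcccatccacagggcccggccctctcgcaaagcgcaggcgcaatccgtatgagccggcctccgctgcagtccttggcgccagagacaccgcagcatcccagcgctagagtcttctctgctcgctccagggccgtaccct
Mpc1: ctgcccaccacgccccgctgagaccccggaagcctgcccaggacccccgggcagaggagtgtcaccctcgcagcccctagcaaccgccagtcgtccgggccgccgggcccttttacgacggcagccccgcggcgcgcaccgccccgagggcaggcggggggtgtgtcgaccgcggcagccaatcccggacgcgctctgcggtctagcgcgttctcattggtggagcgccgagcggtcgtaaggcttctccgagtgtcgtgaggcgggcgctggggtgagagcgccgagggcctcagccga
Pygb held ACGTG once, on the opposite strand, at position −163 from the gene start, and these letters were not in the Pdk4 and Mpc1 windows. Neither of the longer motifs was in the 3 windows. The other Mpc1 window held AGGTCA once. Over all 48 members with a listed promoter (71 windows), 29 windows, or 40.8%, held ACGTG, against 19.6% of all 32851 windows. CACGTG was in 14.1% of the members' windows and 7.15% of all, and AGGTCA in 16.9% and 16.3%. The members' windows were richer in G and C, with a median of 60.7% against 52.7%, and the part of base composition in these shares was not tested.

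Hexokinases and phosphofructokinases catalyse the steps that commit glucose to glycolysis. None of the 5 tested passed, and 4 of the 5 differences were positive (median 0.29). Pfkm, the muscle-type phosphofructokinase, had the smallest p of this group. It measured 12.07, 11.92 and 11.99 in GFP positive cells, against 11.09, 11.20 and 11.91 in GFP negative cells. GFP negative replicate 3 lay just below the GFP positive arrays and the other GFP negative arrays well below. The difference was 0.60 (SE 0.25, 95% interval 0.02 to 1.17, limma adjusted p = 0.258), and 0.85 without that array (limma adjusted p = 0.0192). Pfkl, the liver-type isozyme, overlapped, with 8.15, 8.25 and 7.96 in GFP positive cells, against 6.93, 7.43 and 9.01 in GFP negative cells. GFP negative replicate 3 was the highest of all 6 arrays, so the difference of 0.33 (limma adjusted p = 0.797) became 0.94 without it (limma adjusted p = 0.0348). It was −0.10 without GFP negative replicate 1. Pfkp, the platelet-type isozyme, differed by −0.29 (95% interval −0.82 to 0.24). The hexokinases Hk1 and Hk2 differed by 0.16 (−0.34 to 0.66) and 0.28 (−0.16 to 0.73). Another probe set of Hk1 read 6.59 ± 0.41 in GFP positive and 5.24 ± 0.94 in GFP negative cells (SD, n = 3 each) and did not pass when every probe set was fitted (difference 1.34, limma adjusted p = 0.215).

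The PFKFB enzymes make and break fructose 2,6-bisphosphate, the activator of phosphofructokinase. Pfkfb3, the isozyme whose kinase activity most exceeds its phosphatase activity, measured 9.75, 9.98 and 10.15 in GFP positive cells, against 9.45, 9.59 and 8.81 in GFP negative cells. The groups did not overlap, although GFP negative replicate 2 came close to GFP positive replicate 1. Its difference was 0.67 (SE 0.25, 95% interval 0.09 to 1.26) and did not pass (limma adjusted p = 0.208). Pfkfb2 differed by 0.47 (95% interval −0.32 to 1.27), with overlapping groups. In both, GFP negative replicate 3 was the lowest array, and without it the differences were 0.43 and 0.14. Pfkfb4 averaged 3.59 ± 0.64 in GFP positive and 3.56 ± 0.38 in GFP negative cells (SD, n = 3 each), near background.

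From aldolase to enolase all 6 tested members were positive, with a median of 0.36, and none passed. Aldoc, the brain isozyme of aldolase, measured 14.09, 14.05 and 14.32 in GFP positive cells, against 13.67, 13.41 and 13.73 in GFP negative cells. The groups did not overlap, at a difference of 0.55 (SE 0.18, 95% interval 0.12 to 0.97, limma adjusted p = 0.160). A dimmer Aldoc probe set read 11.62, 11.75 and 11.91 in GFP positive cells, against 10.40, 10.12 and 9.98 in GFP negative cells. It differed by 1.59, or 3.02-fold, and passed when all 18742 probe sets above the filter were fitted (limma adjusted p = 0.0205). The size of the Aldoc difference thus depended on the probe set. With the mean of its probe sets Aldoc passed, at 1.07 (limma adjusted p = 0.0186), and with trend and robust settings at 0.55 (0.0472). Aldoa, the ubiquitous isozyme, differed by 0.07 (95% interval −0.43 to 0.58).

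Among the later steps, Pgk1, the kinase that yields the first ATP of the pathway, measured 13.26, 13.80 and 13.80 in GFP positive cells, against 13.08, 13.15 and 13.16 in GFP negative cells. Its difference was 0.49 (SE 0.20, 95% interval 0.02 to 0.97, limma adjusted p = 0.258). That probe set is of a cross-hybridising type, and the others of Pgk1 differed by −0.0025 and 0.11. Eno2, the enolase known as neuron-specific, read 9.52, 9.46 and 9.75 in GFP positive cells, against 9.19, 9.28 and 8.99 in GFP negative cells. Neuronal markers averaged 4.51 to 4.70 on GFP positive and 4.78 to 5.05 on GFP negative arrays. This average mixes 6 markers below the filter with 2 above it. Those 2 were Map2, at 12.46 in GFP positive and 12.80 in GFP negative cells, and Gap43, at 7.98 and 9.02. The Eno2 groups were narrowly apart, by 0.43 on average (SE 0.18, 95% interval 0.01 to 0.85, limma adjusted p = 0.265). Tpi1 (0.29) and Pgam1 (0.22), the triose phosphate isomerase and the general phosphoglycerate mutase, overlapped between the groups. Pgam2, the muscle form, averaged 2.30 in GFP positive and 2.28 in GFP negative cells, near background.

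Gapdh, the step that reduces NAD, was read from control probe sets that span the transcript. At its 3′ end the signal was 14.43, 14.25 and 14.35 in GFP positive cells, against 14.06, 14.21 and 14.31 in GFP negative cells, which overlapped. In a fit with control probe sets kept, chosen after seeing the data, it differed by 0.15 and did not pass (limma adjusted p = 0.725). The 5′ probe set differed by 0.58, with 13.16, 13.02 and 13.02 in GFP positive cells, against 12.91, 11.88 and 12.66 in GFP negative cells. The lowest 5′ value was on GFP negative replicate 2.

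Lactate dehydrogenase interconverts pyruvate and lactate. Ldhb, the heart-type subunit, measured 13.88, 14.07 and 13.98 in GFP positive cells, against 13.65, 13.77 and 13.90 in GFP negative cells. GFP negative replicate 3 lay within the range of the GFP positive arrays. The difference of Ldhb was 0.20 (SE 0.17, 95% interval −0.19 to 0.60, limma adjusted p = 0.614), and its 4 probe sets differed by 0.13 to 0.29. Ldha, the muscle-type subunit, differed by 0.02 (95% interval −0.50 to 0.55).

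**Figure D2:**
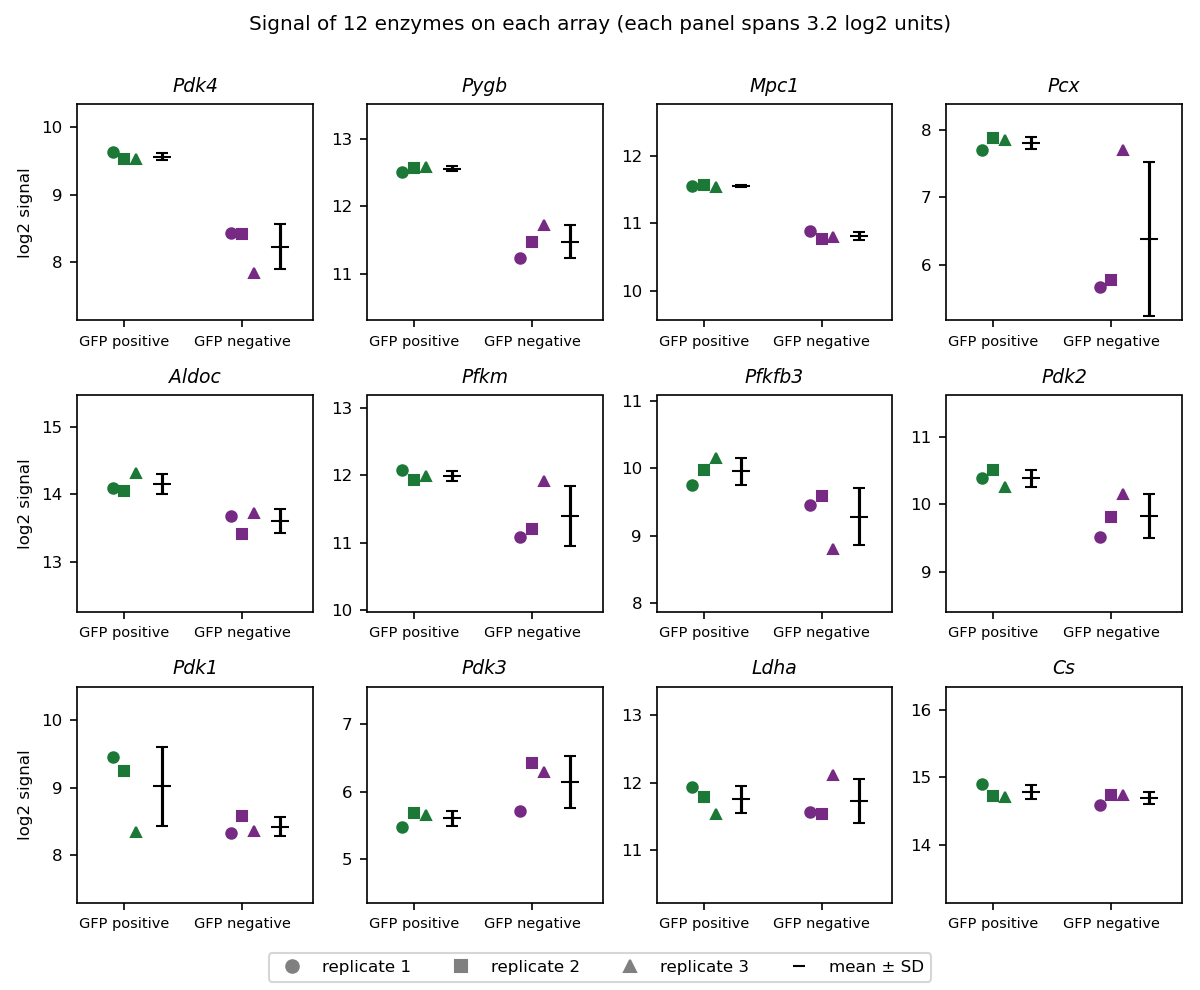
Log2 signal of 12 enzymes on each GFP positive (green, left) and GFP negative (purple, right) array, with symbols for the replicate numbers and the mean ± SD of 3 arrays beside them. In Pdk4, Pygb and Mpc1 the groups lie clearly apart, whereas in Pcx GFP negative replicate 3, at 7.69, stands beside the GFP positive arrays.

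Of the 10 tested members in pyruvate entry and use, 2 rose, Pdk4 and Mpc1, and 4 were higher at an unadjusted limma p under 0.05. Among all genes tested 2.35% rose, and 9.92% were higher at an unadjusted limma p under 0.05. Whether this role exceeded those shares was not tested. None of the subunits of the pyruvate dehydrogenase complex passed, with Pdha1 at 0.04 (95% interval −0.36 to 0.43), Pdhb at −0.08 (−0.48 to 0.31), Dlat at −0.01 (−0.43 to 0.41) and Dld at 0.25 (−0.15 to 0.66). These intervals leave room for differences of up to 0.66 in size. A dimmer probe set of Pdhb differed by −1.04 without overlap, 6.22 ± 0.41 in GFP positive and 7.26 ± 0.26 in GFP negative cells (SD, n = 3 each), and did not pass (limma adjusted p = 0.102 with every probe set fitted).

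The PDK kinases did not all lean the same way. Pdk2, the most widely expressed of them, measured 10.38, 10.51 and 10.25 in GFP positive cells, against 9.51, 9.81 and 10.15 in GFP negative cells. It was higher without overlap but did not pass (0.56, SE 0.21, 95% interval 0.06 to 1.06, limma adjusted p = 0.219). Without GFP negative replicate 3 it passed, at 0.72 (limma adjusted p = 0.0441). Pdk1, known as a target of hypoxia signalling, read 9.46, 9.25 and 8.35 in GFP positive cells, against 8.33, 8.58 and 8.36 in GFP negative cells. GFP positive replicate 3 lay among the GFP negative arrays, and the difference of 0.59 (SE 0.30) did not pass (limma adjusted p = 0.362). All 4 probe sets of Pdk1 above the filter were positive, at 0.46 to 1.94. The one with the largest difference, 6.43 ± 0.40 in GFP positive and 4.49 ± 0.63 in GFP negative cells (SD, n = 3 each), passed when every probe set was fitted (limma adjusted p = 0.0471), and the mean of the probe sets passed too (1.01, limma adjusted p = 0.0304). Pdk3 was the only PDK with a negative difference, at 5.48, 5.68 and 5.66 in GFP positive cells, against 5.71, 6.43 and 6.29 in GFP negative cells. Those groups met without overlapping, and the difference of −0.54 (SE 0.23) did not pass (limma adjusted p = 0.277).

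Pcx, pyruvate carboxylase, makes oxaloacetate from pyruvate and so refills the TCA cycle. It had the largest difference of all members and did not pass. Its signal was 7.70, 7.87 and 7.84 in GFP positive cells, against 5.68, 5.78 and 7.69 in GFP negative cells. On GFP negative replicate 3 it thus stood just below the GFP positive arrays, and the SD was 0.09 in GFP positive cells and 1.14 in GFP negative cells. The difference was 1.42 (SE 0.51, 95% interval 0.23 to 2.62, limma adjusted p = 0.190). Without GFP negative replicate 3 it was 2.08 and passed (limma adjusted p = 0.00333), and over the arrays left out in turn the limma adjusted p reached 0.444. A control probe set at the 3′ end of Pcx also read highest on replicate 3 within the GFP negative group, level with the lowest GFP positive array, with 7.73, 7.70 and 7.40 in GFP positive cells, against 5.83, 6.01 and 7.40 in GFP negative cells.

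No enzyme of the TCA cycle or its cytosolic counterparts passed the test. Of the 15 tested, 0 had an unadjusted limma p under 0.05, and the differences ran from −0.26 to 0.27 with a median of 0.08. The groups did not overlap for Idh1 and Mdh2, which were higher in GFP positive cells, and for Idh3a and Sucla2, which were lower. That was 13.3% of the 15 in each direction, near the 13.8% and 11.5% of all genes. The smallest p belonged to Idh3a, the catalytic subunit of the NAD-dependent isocitrate dehydrogenase. It measured 10.93, 10.86 and 10.67 in GFP positive cells, against 11.06, 11.09 and 11.08 in GFP negative cells. The groups were apart, but the difference of −0.26 (SE 0.17, 95% interval −0.64 to 0.13) did not pass (limma adjusted p = 0.497). The other subunits of that enzyme leaned the other way, Idh3b by 0.20 and Idh3g by 0.18, and neither passed. All 3 Idh3a probe sets above the filter were negative (−0.48 to −0.26), and both of Idh3b and of Idh3g were positive.

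Cs, citrate synthase, which opens the cycle, differed by 0.09 (95% interval −0.30 to 0.47), and Mdh2, the mitochondrial malate dehydrogenase that closes it, by 0.08 (−0.29 to 0.46). Ogdh and Dlst of the 2-oxoglutarate dehydrogenase complex differed by 0.07 and −0.01. Dimmer probe sets of both did not pass when every probe set was fitted. That of Ogdh differed by −0.42 with overlapping groups (limma adjusted p = 0.411), and the 3 of Dlst by −1.08, −0.21 and 0.08. The first of these Dlst probe sets averaged 4.22 ± 0.59 in GFP positive and 5.30 ± 0.43 in GFP negative cells (SD, n = 3 each), near the filter and without overlap (limma adjusted p = 0.188). Of the succinyl-CoA ligase subunits, Sucla2 (−0.21) was lower without overlap, and Suclg1 (0.27) and Suclg2 (−0.06) overlapped. Fh1, fumarase, differed by −0.07. Idh2, the mitochondrial NADP-dependent form, differed by −0.18 with all arrays and by 0.20 without GFP negative replicate 3. The cytosolic enzymes Idh1 (0.25), Aco1 (0.09) and Mdh1 (0.16) did not pass either.

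On the side of glycogen, Gys1, the synthase that counters Pygb, read 7.58, 8.07 and 7.41 in GFP positive cells, against 6.99, 7.52 and 8.68 in GFP negative cells. The groups overlapped fully, and the difference was −0.05 (95% interval −1.04 to 0.95), or 0.43 without GFP negative replicate 3. Fbp2, the muscle-type fructose bisphosphatase of gluconeogenesis, averaged 2.28 in GFP positive and 2.24 in GFP negative cells, near background.

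**Figure D3:**
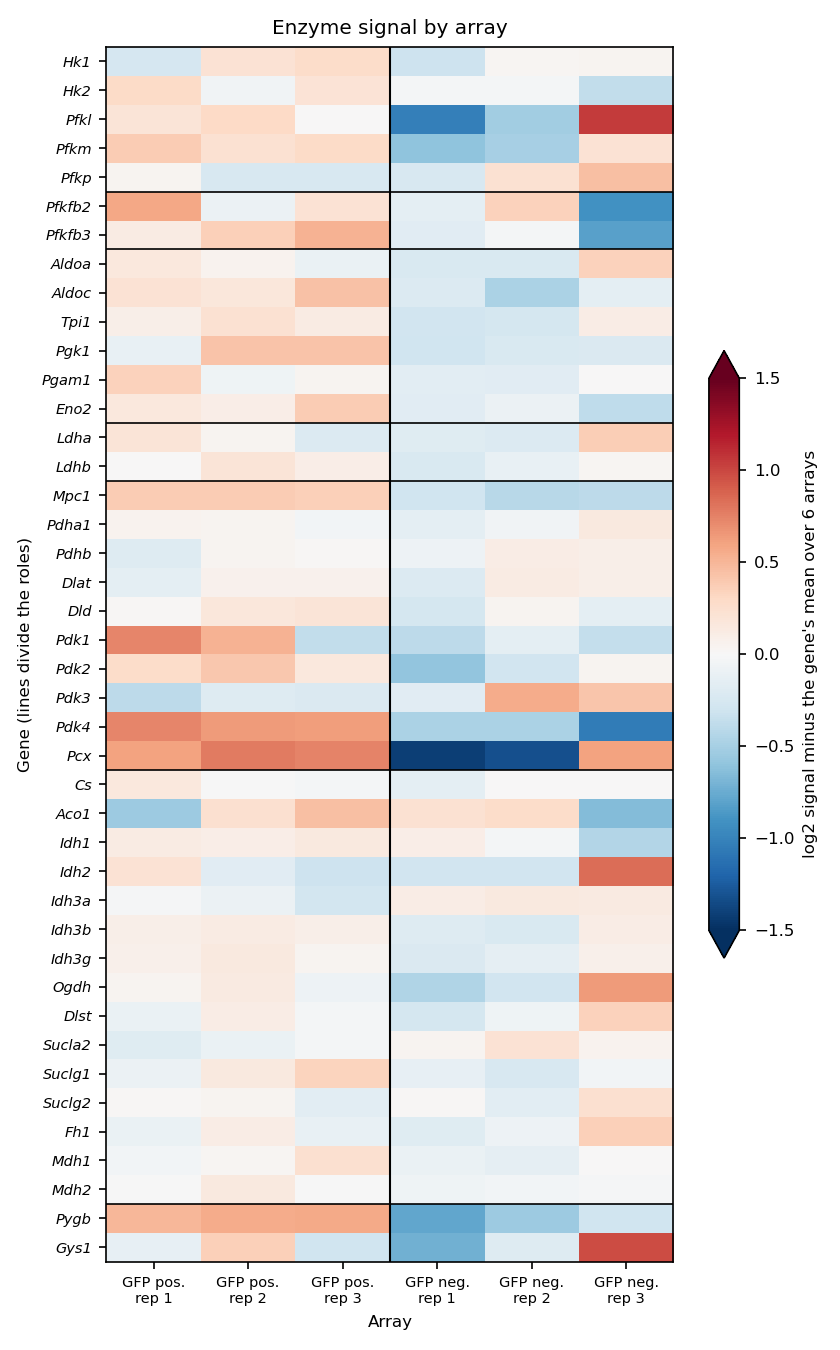
Log2 signal of the 42 tested enzymes (rows, lines divide the roles) on the 6 arrays (columns, GFP positive left of the line), each relative to the gene's own mean over all arrays. Pdk4, Mpc1 and Pygb are red on all GFP positive and blue on all GFP negative arrays, while GFP negative replicate 3 departs from its group for Pfkl, Pcx, Idh2, Ogdh and Gys1.

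Within the GFP negative group the arrays were not alike. Relative to each gene's mean, the median of the 42 members came to 0.08, 0.13 and 0.07 for the GFP positive replicates in order of number, against −0.20, −0.13 and 0.05 for the GFP negative replicates. Over all genes tested these medians were 0.04, 0.03 and −0.05 for the GFP positive replicates, against −0.08, −0.0078 and 0.11 for the GFP negative replicates, so that GFP negative replicate 3 was the highest of its group there too. GFP negative replicate 3 lay above both other GFP negative arrays for 27 members (64.3%) and below both for 7 (16.7%), where the shares among all genes were 51.2% and 33.0%. For the TCA cycle it was above them for 11 of 15. The PFKFB regulators went the other way, with both tested members lowest on that array. By compartment, 18 of 20 cytosolic members were positive (median 0.27) and 13 of 22 mitochondrial members (median 0.08), where 50.5% of all genes were. Past the limma threshold were 1 cytosolic and 2 mitochondrial members, and the contrast between compartments was not tested. With cross-hybridising probe sets left out, the cytosolic Pgk1, Mdh1 and Aco1 turned negative and the mitochondrial Suclg2 turned positive.

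The balance between isozymes was compared within arrays, as the log2 signal of 1 enzyme minus that of a related one. Such a balance is not a ratio of amounts, since probe sets differ in brightness. A shift common to all probe sets of an array cancels in it, whereas scaling that depends on brightness need not. Of 16 pairs listed, 12 had both members tested, and 3 of these separated the groups, 2 upward and 1 downward in GFP positive cells. Among all single genes tested, the groups did not overlap for 13.8% upward and 11.5% downward. Whether the pairs exceeded such shares was not tested. With 3 arrays per group the exact 2-sided permutation test cannot go below p = 0.1, the value of these 3 pairs (0.4 after Benjamini-Hochberg adjustment over 12 pairs), so they are a description.

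Pdk4 minus Pdk1 was 0.18, 0.29 and 1.18 in GFP positive cells, against 0.10, −0.15 and −0.51 in GFP negative cells, a shift of 0.74 toward Pdk4. Pdk3 minus Pdk1 was −3.98, −3.56 and −2.69 in GFP positive cells, against −2.62, −2.15 and −2.07 in GFP negative cells, a shift of −1.13 away from Pdk3. Both gaps between the groups were narrow, set by GFP positive replicate 1 for Pdk4 minus Pdk1 and by GFP positive replicate 3 for Pdk3 minus Pdk1, and by GFP negative replicate 1 in both. Both balances used the brightest Pdk1 probe set. The 4 Pdk1 probe sets above the filter differed by 0.46 to 1.94, and Pdk4 by 1.33. The direction of Pdk4 minus Pdk1 thus depended on the Pdk1 probe set taken. Aldoc minus Aldoa was 0.55, 0.61 and 1.02 in GFP positive cells, against 0.51, 0.25 and −0.01 in GFP negative cells, a shift of 0.48. GFP negative replicate 1 nearly reached GFP positive replicate 1. The 5 Aldoa probe sets are all of a cross-hybridising type. They differed by 0.02 to 0.09, apart from the dimmest at 0.71, and the 2 of Aldoc differed by 0.55 and 1.59. The size of the Aldoc minus Aldoa shift thus depended on the probe sets taken. Its direction did too, when the dimmest Aldoa probe set was set against the brightest of Aldoc.

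The remaining 9 pairs overlapped. Ldhb minus Ldha shifted by 0.18, Hk2 minus Hk1 by 0.12, and Mdh2 minus Mdh1 by −0.07, with exact p of 0.4, 0.7 and 0.8. Pfkp minus Pfkl shifted by −0.63 with all arrays and by −1.08 without GFP negative replicate 3. Idh2 minus Idh1 was −0.42 with all arrays and 0.11 without it.

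**Figure D4:**
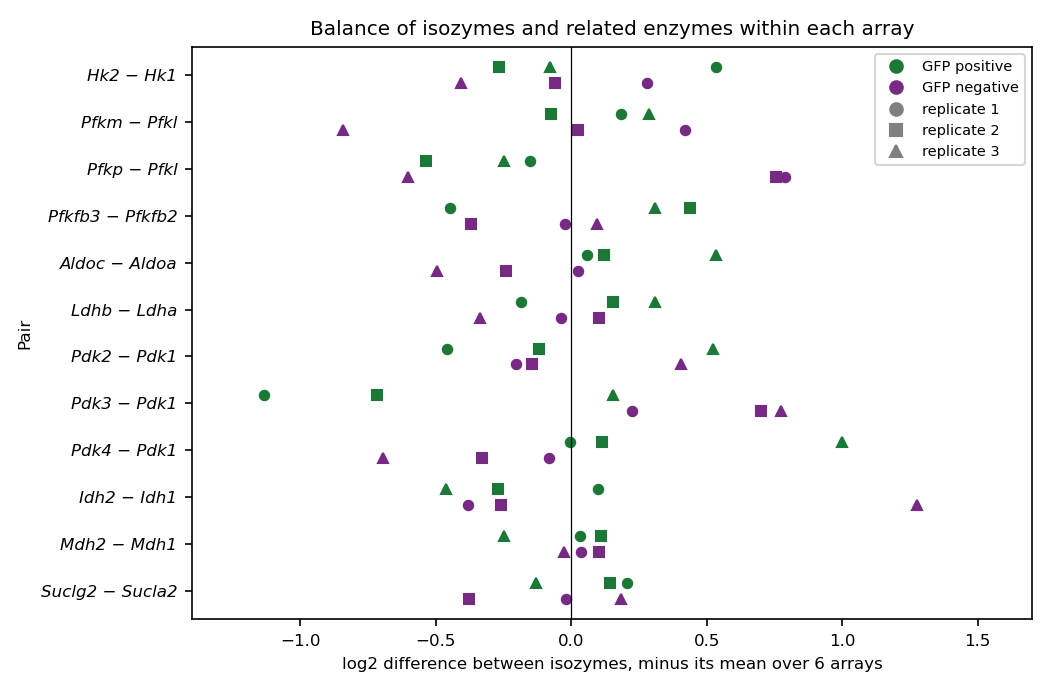
Log2 difference between 2 related enzymes on each array, shown relative to its mean over the 6 arrays, for 12 pairs (GFP positive in green above GFP negative in purple, symbols for replicate numbers). Green points all lie right of purple ones for Aldoc minus Aldoa and Pdk4 minus Pdk1 and left of them for Pdk3 minus Pdk1, and the other pairs overlap.

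Another 68 genes of glucose transport, glycogen, the pentose phosphate route, pyruvate dehydrogenase control and related steps were listed beside the members. Of these 62 had a probe set and 46 were tested, 1 rose and none fell (before adjustment, limma placed 6 upward and 3 downward at p under 0.05), with a median of 0.09. The 1 that rose was 2.17% of those tested, near the 2.35% of all genes. Before adjustment the shares were 13.0% upward and 6.52% downward, against 9.92% and 8.28% of all genes. The gene that rose was Pdp2, a phosphatase that reactivates pyruvate dehydrogenase and so opposes the PDK kinases. It measured 8.30, 8.23 and 8.24 in GFP positive cells, against 7.43, 7.19 and 7.52 in GFP negative cells. The groups were well apart, and Pdp2 was 1.84-fold higher (0.88, SE 0.17, limma adjusted p = 0.0357). Left out in turn, the arrays gave 0.78 to 0.95, and only without GFP negative replicate 3 did Pdp2 pass (limma adjusted p 0.016, otherwise up to 0.166). Pkm, pyruvate kinase, differed by −0.22 (limma adjusted p = 0.691), the glucose transporter Slc2a1 by 0.13 (0.776) and the lactate and pyruvate transporter Slc16a1 by 0.13 (0.881). G6pdx was not analysed here.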

How the data were processed

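Total RNA was labelled with biotin and hybridised to Affymetrix mouse expression arrays. The authors deposited log2 values computed with GCRMA, as named in the submitters' processing notes. This method subtracts sequence-dependent background, equalises the distributions of the arrays and fits 1 value per probe set. Its version and a genome build are not given in the sources used here. Dim probe sets are drawn toward a floor, and a change shared by the whole transcriptome is removed. All 45101 probe sets were used without further normalization. Of 35890 annotated ones, 34945 named 1 gene after 932 with several genes or no symbol and 13 control probe sets were left out. Each gene was read from its brightest probe set and tested where at least 3 of 6 arrays read log2 4 or more.

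Groups were compared over all tested genes by lmFit and eBayes of limma 3.58.1 (R 4.3.3) without covariates, at a Benjamini-Hochberg adjusted p under 0.05; the script was tested on simulated data. Differences are GFP positive minus GFP negative. Isozyme balances were tested with scipy 1.17.1. The members and lists were chosen with earlier results of these data known. Array-by-array values are given for each member past the threshold and, in each role, for the member with the smallest p and those with an unadjusted p under 0.05; others singled out for a probe set or an array that stands apart were chosen after their values were seen, as was Pdk3. Promoters are those of RefSeq; AGGTCA was added after seeing the data. Alternatives were other filters, scalings, probe set rules, eBayes settings, a block for replicate number, array weights, and each array left out; control probe sets kept, every probe set fitted and a 3′ to 5′ covariate were added after seeing the data.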

Additional observations from a re-analysis of the deposited data

How the results depend on the processing

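The number of enzymes higher in GFP positive cells was 3 with all 6 arrays and 0 to 7 when 1 array was left out. It was 5 with the mean of a gene's probe sets (Aldoc and Pdk1 added) and 6 with array weights (Pcx, Pdk2 and Pfkm added; 9.98% of all genes were then higher), where the weights ran between 0.152 for GFP negative replicate 3 and 8.35 for GFP positive replicate 2. After seeing the data, the excess of 3′ over 5′ signal was added as a covariate, and 0 were then higher, although 4 passed upward and 0 downward at a limma p under 0.05 before adjustment; 0.0855% of all genes were higher in that fit. With the replicate number as a block 0 were higher as well, again with 4 upward and 0 downward before adjustment, and 0.18% of all genes were higher. The numbers share no stated origin. Deviations of same-numbered arrays from their group means correlated at −0.25, 0.05 and −0.50 across genes. GFP positive replicate 1 correlated best with GFP negative replicate 3 (0.44), and GFP positive replicate 3 with GFP negative replicate 2 (0.36). With 3 arrays per group such deviations are tied to each other within a group. They therefore cannot decide whether same-numbered arrays share an origin. The number of isozyme pairs that separated the groups was 3, and 3 to 5 when 1 array was left out (5 without GFP positive replicate 1). Leaving out an array cannot make separate groups overlap, so this count could not fall. With the other filters, the other scalings, trend and robust settings, control probe sets kept, every probe set fitted on its own or cross-hybridising probe sets left out, 2 to 4 members were higher, and in each fit run none was lower. Over 17 alternatives 27 members kept their sign in every fit that tested them and 15 changed it at least once, none of them Pdk4, Pygb or Mpc1; for these 3 the groups do not overlap, so leaving out an array could not turn it.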
